A study of Mus musculus with 35 samples.

Results

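The 10 genes described here belong to the TGF-β pathway and were listed by name: the ligands *Tgfb1*, *Tgfb2* and *Tgfb3*, the receptors *Tgfbr1*, *Tgfbr2*, *Tgfbr3*, *Eng* and *Acvrl1*, the integrin subunit *Itgb8* and the ligand-anchoring protein *Nrros*. All 10 were found among the 53465 genes listed for the bulk libraries and among the 21548 genes named for the single cells. The samples came from E14.5 mouse brain, for which the labels give no strain. Microglia, endothelial, mural and neural cells were sorted by FACS after staining for surface proteins. Each population gave 3 bulk RNA-seq libraries, which the labels number alike. Neural libraries are N-340, N-343 and N-346, and the prefixes Mu, Ec and Mi stand for mural cells, endothelium and microglia. Values of 3 libraries are given in this order. Single cells were sorted into wells of 3 wild-type plates and counted with mCEL-Seq2, which reads molecular identifiers. The *Mof* knockout wells carry no sort gate and were not used here.

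In the bulk data, neural libraries were made with the Illumina TruSeq kit and the other 3 populations with SMART-Seq v4 and Nextera XT, so the kit and the neural population cannot be told apart. The libraries held 17638358 to 98414914 reads on genes, and 1 read was worth 0.264 to 1.77 normalized counts, the unit used throughout for bulk levels. Each population was highest in the summed level of its own 7 marker genes. Summed neural markers in mural libraries reached 37.2% of their sum in neural libraries, mostly through *Fabp7* (354% of its neural mean) and *Sox11* (46.7%). The median over the 7 genes was 6.44%, and *Tubb3*, *Dcx* and *Neurod2* were at 1.40% to 3.47%. In endothelial cells and microglia the medians were 2.16% and 2.25%. Of 7 fibroblast markers, *Col3a1*, *Col1a2* and *Foxc1* had mural means of 5837, 3469 and 1683 normalized counts, while *Pdgfra* was at 0.313 and *Lum* at 47.8. Of 6 border macrophage markers, *Mrc1* and *F13a1* had microglial means of 9573 and 6472, *Pf4* and *Lyve1* of 716 and 397, and *Cd163* and *Cbr2* of 20.6 and 15.9. Summed erythroid markers were highest in the endothelial libraries, at 8798, 8158 and 21146 normalized counts, compared with 4560 to 5811 in neural, 194 to 487 in mural and 1022 to 1518 in microglia libraries. Their part in the endothelial levels was not tested. On plate 3, which kept the fewest cells, the 13 cells of the endothelial gate held 2821 CPM of mural markers and 2679 CPM of endothelial markers. On plates 1 and 2 the same gate held 475 and 100.6 CPM of mural markers.

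TGF-β ligands are secreted in an inactive form. Each is made with a propeptide that stays wrapped around the mature growth factor and keeps it latent until it is released. The integrin αvβ8, of which *Itgb8* encodes the β subunit, binds the propeptide of latent TGF-β and thereby activates it, and NRROS holds latent TGF-β1 on the surface of myeloid cells. Active ligand binds the type II receptor TGFBR2, which recruits the type I receptor TGFBR1 or, in endothelium, ACVRL1 (ALK1). Betaglycan (TGFBR3) and endoglin (ENG) are co-receptors. In the developing brain, activation of TGF-β by αvβ8 of neuroepithelial cells is known to be needed for vessels to form without bleeding and for microglia to mature.

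The integrin recognizes the tripeptide arginine, glycine, aspartate in the propeptide, and the coding sequences of the ligands show which of them carry it. In GENCODE vM21 on GRCm38, codons for this tripeptide were found in frame at 1 position in *Tgfb1* and at 1 position in *Tgfb3*, and at 0 positions in either coding transcript of *Tgfb2*. In *Tgfb1* they are codons 244 to 246 of 390, on chromosome 7 from 25697142 to 25697150 (plus strand), in exon 5 of 7. In *Tgfb3* they are codons 261 to 263 of 412, on chromosome 12 from 86062165 to 86062173 (minus strand), also in exon 5 of 7. The 15 codons around each are shown in the direction of translation, with the codons for the tripeptide in capitals.
Tgfb1: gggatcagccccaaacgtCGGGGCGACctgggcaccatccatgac
Tgfb3: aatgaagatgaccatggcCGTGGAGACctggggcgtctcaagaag

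The promoters of *Itgb8*, *Nrros* and *Eng* are shown because these genes were highest in 3 different populations. The windows run from 250 bases before to 50 bases after the RefSeq start site on GRCm38.p6, and 7 of the 10 genes had such a window. Capitals mark CAGAC, the core of the sequence that SMAD proteins bind, and GAGGAAGT, a form of the PU.1 motif, on either strand.
Itgb8, chr12:119238227-119238526, minus strand: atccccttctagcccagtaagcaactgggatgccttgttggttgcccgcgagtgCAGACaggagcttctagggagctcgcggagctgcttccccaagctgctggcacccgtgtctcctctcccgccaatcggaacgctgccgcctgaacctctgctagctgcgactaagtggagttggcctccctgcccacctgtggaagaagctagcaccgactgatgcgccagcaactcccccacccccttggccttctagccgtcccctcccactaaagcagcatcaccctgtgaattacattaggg
Nrros, chr16:32165545-32165844, minus strand: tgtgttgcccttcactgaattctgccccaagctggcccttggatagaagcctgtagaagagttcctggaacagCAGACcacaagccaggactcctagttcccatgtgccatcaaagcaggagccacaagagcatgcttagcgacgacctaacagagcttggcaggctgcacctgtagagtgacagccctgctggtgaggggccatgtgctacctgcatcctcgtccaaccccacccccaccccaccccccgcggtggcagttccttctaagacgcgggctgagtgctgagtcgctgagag
Eng, chr2:32646345-32646644, plus strand: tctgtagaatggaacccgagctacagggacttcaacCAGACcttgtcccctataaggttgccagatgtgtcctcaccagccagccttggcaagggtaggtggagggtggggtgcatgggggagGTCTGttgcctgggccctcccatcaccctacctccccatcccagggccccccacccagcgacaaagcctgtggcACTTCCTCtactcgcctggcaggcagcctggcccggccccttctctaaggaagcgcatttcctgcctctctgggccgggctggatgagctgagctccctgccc

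CAGAC was found at 1 position each in the *Itgb8* and *Nrros* windows and at 2 positions in the *Eng* window, where 49.6% of 32851 promoter windows hold it. GAGGAAGT was found at 1 position in the *Eng* window and in 3.20% of all windows. The 2 motifs did not overlap in these windows. The *Itgb8* window lies inside the longer GENCODE model of the gene, which ends at 119238802. A match describes the letters only.

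The question put to the bulk data was which population holds which step of the pathway. Neural cells held the activator *Itgb8* but almost no type II receptor, *Eng*, *Acvrl1* or *Tgfb1*. Endothelial cells held the highest levels of *Tgfb2*, *Eng* and *Acvrl1*, microglia those of *Tgfb1*, *Tgfbr1* and *Nrros*, and mural cells that of *Tgfbr3*. In bulk libraries, fewer cells that express a gene and less RNA per cell cannot be told apart. Each population was compared with the mean of the other 3 by limma on log2(normalized count + 1), with Benjamini-Hochberg adjustment over 19765 genes, and a gene was called at an adjusted p under 0.05.

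In neural cells, 3 of the 10 genes were higher (*Itgb8*, *Tgfb3* and *Tgfbr1*) and 5 were lower, where 32.9% of all genes tested were higher and 31.2% lower. In mural cells 3 were higher and 2 lower, against 19.3% and 22.7% of all genes. Endothelial cells had 6 higher and 2 lower, against 19.7% and 22.4%, and microglia 4 higher and 4 lower, against 23.4% and 22.3%. A difference of over 10-fold was reached by *Itgb8* in neural cells (1 gene, against 13.8% of all genes), *Tgfbr3* in mural cells (1, against 4.99%), 5 genes in endothelial cells (6.28%) and 2 in microglia (8.27%). At least 1 population was over 10-fold higher for 8 of the 10, compared with 31.4% of all genes. *Tgfb3* and *Tgfbr1* were the exceptions. When the populations were ordered by the level of each gene, 17 of 30 neighboring pairs differed, where 25.6% of such pairs did over all genes. Taken pair by pair, 54.6% of all genes differed between neural and mural cells, 57.7% between neural and endothelial cells, 59.8% between neural cells and microglia, 27.8% between mural and endothelial cells, 38% between mural cells and microglia and 32.4% between endothelial cells and microglia.

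**Figure D1:**
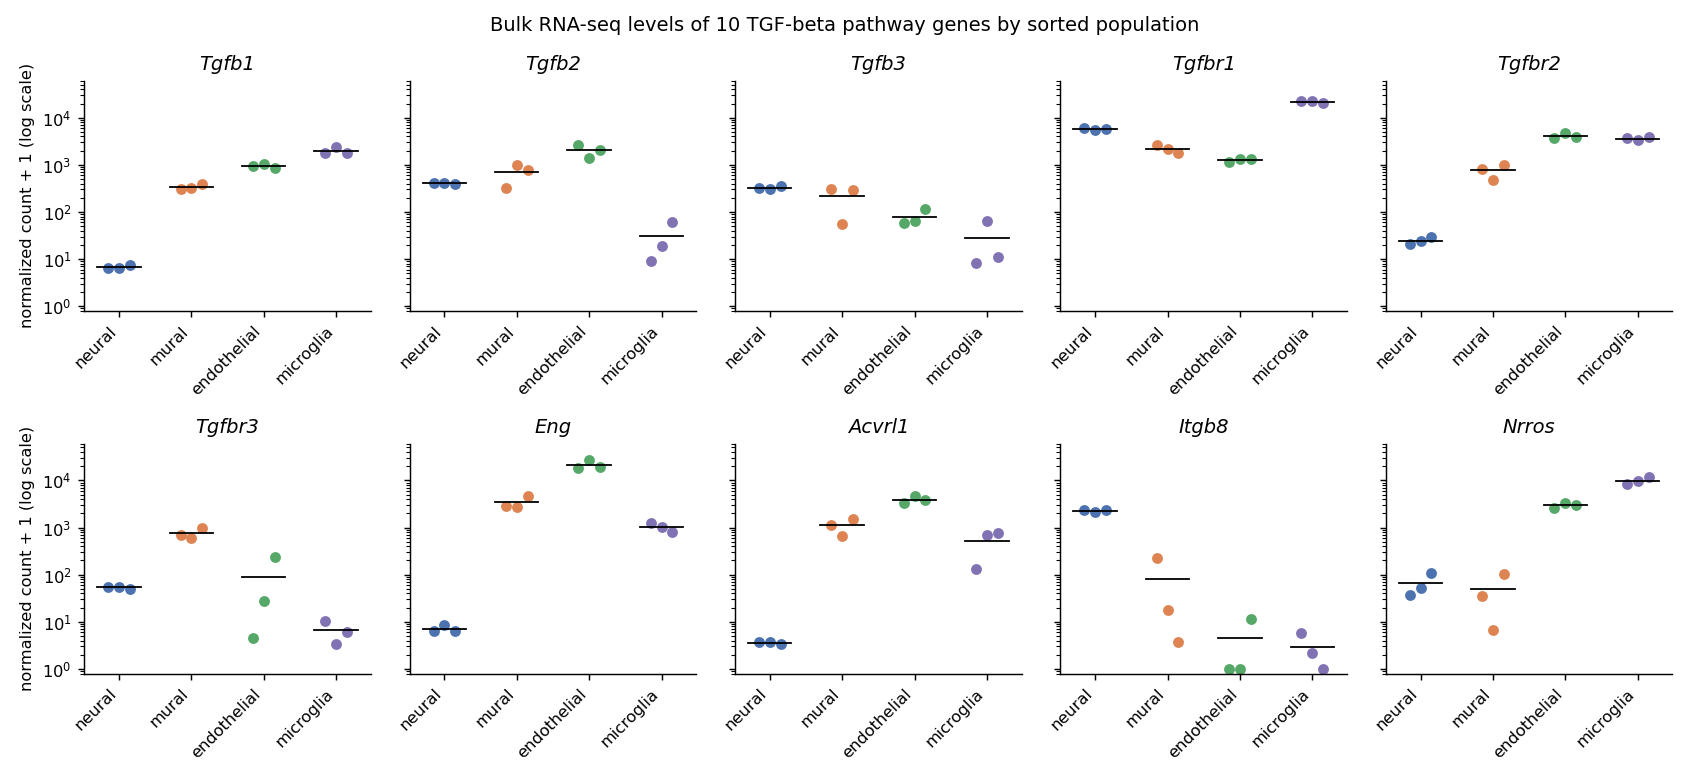
Normalized counts + 1 on a log scale for the 10 genes in the 12 bulk libraries, by population. Points are libraries (numbered alike, from left to right) and lines are means. The 3 neural points of *Itgb8* lie between 2179 and 2318 normalized counts, above all other libraries, and the 3 neural points of *Eng* lie between 5.28 and 7.75, below all others.

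Among the ligands, *Tgfb1*, whose product is the form anchored by NRROS, had 1823, 2342 and 1819 normalized counts in Mi-340, Mi-343 and Mi-346. The endothelial libraries held 962, 1060 and 869, the mural libraries 304, 320 and 400, and the neural libraries 5.34, 5.54 and 6.34. The populations did not overlap, and each of the 3 neighboring pairs in this order differed (limma adjusted p between 6.7e-08 and 0.012). The call between microglia and endothelial cells was lost without any 1 of the replicate numbers and without Mi-343 alone (0.062 to 0.085). The log2 difference from the mean of the other populations was 3.93 ± 0.22 (SE) in microglia (adjusted p = 1.4e-07), 2.54 in endothelial cells (9.2e-06) and -7.01 in neural cells (1.8e-09). In mural cells it was 0.54 and was not called (adjusted p = 0.072).

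*Tgfb2*, the ligand without the tripeptide codons, had another order. Endothelial libraries held 2606, 1366 and 2077 normalized counts, mural libraries 326, 988 and 774, neural libraries 411, 413 and 398, and microglia 8.32, 17.8 and 61.7. All endothelial libraries lay above the rest and all microglia libraries below, while the mural and neural ranges overlapped. The endothelial difference was 3.45 ± 0.52 on the log2 scale (limma adjusted p = 0.00040) and the microglial one -5.16 ± 0.52 (1.3e-05). Taken by pairs, endothelial and mural cells were not told apart (adjusted p = 0.080), nor were mural and neural cells (0.43).

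*Tgfb3*, the other ligand with the tripeptide codons, was the least abundant of the 3 at its highest, with 96.3 normalized counts per kilobase of exon in neural cells compared with 396 for *Tgfb1* in microglia and 348 for *Tgfb2* in endothelial cells. Neural libraries held 318, 311 and 348 normalized counts, and mural libraries 312, 55.9 and 286. The endothelial libraries held 56.7, 62.5 and 114.6, so that Mu-343 lay just below them and the other mural libraries above. Microglia held 7.13, 62.9 and 10.1. Neural cells were higher by 2.41 ± 0.69 on the log2 scale (limma adjusted p = 0.011), a call that was lost without the libraries numbered as N-340 or as N-346 (up to 0.079). Microglia were lower by the same test at -3.17 ± 0.69 (0.0034), a call also lost without either number (up to 0.095). None of the 3 neighboring pairs differed (adjusted p from 0.089 to 0.39). *Tgfb3* overlaps *Ttll5* on the opposite strand and *Tgfb2* an antisense gene, and whether the counting used strand is not given in the sources used here.

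**Figure D2:**
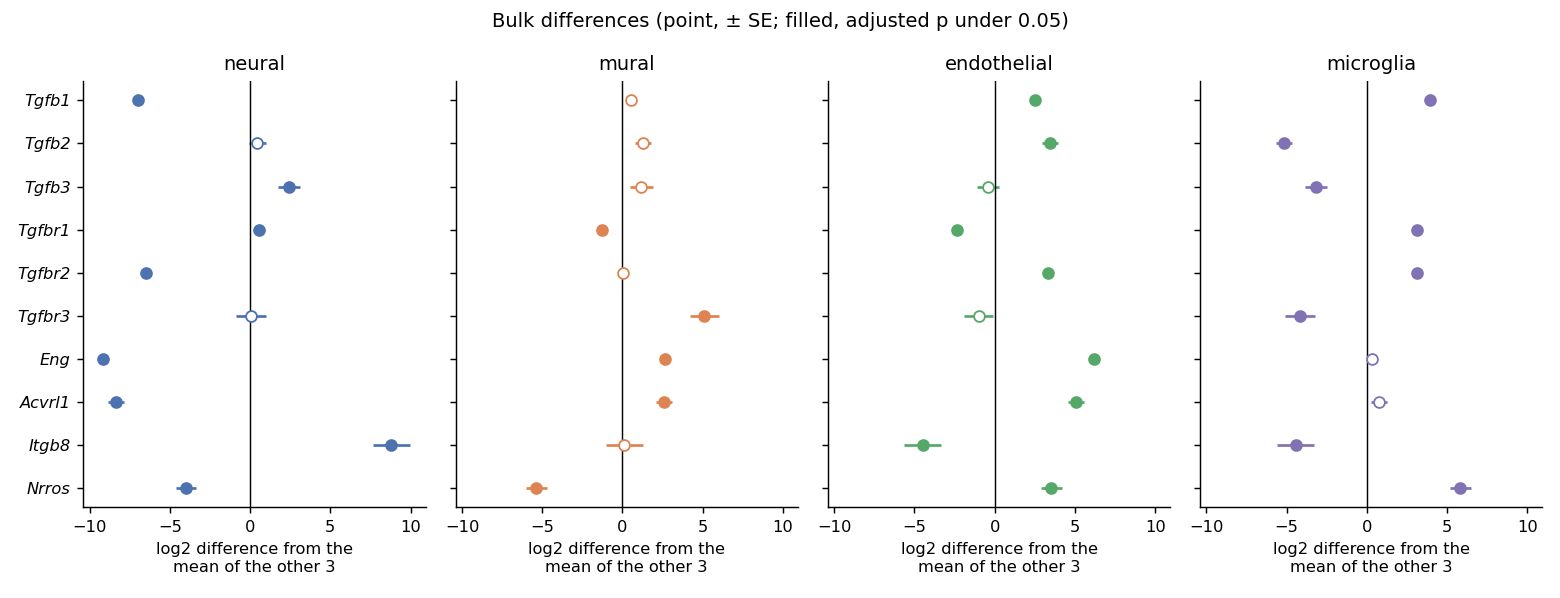
Log2 difference of each population from the mean of the other 3 in bulk, with its SE from limma (x axis), for the 10 genes (y axis), filled where the adjusted p was under 0.05. In neural cells *Itgb8* is 8.80 and *Eng* is -9.20, and in mural cells *Tgfbr3* is 5.11.

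*Itgb8* encodes the integrin subunit that gives αvβ8 its ligand specificity. Its neural libraries held 2318, 2179 and 2314 normalized counts. Mural libraries held 223, 17.1 and 2.82, endothelial libraries 0, 0 and 10.6, and microglia 4.75, 1.19 and 0. All neural libraries lay above the other 9. The neural difference was 8.80 ± 1.17 on the log2 scale (limma adjusted p = 6.9e-05), and neural cells were higher than mural cells, the next in order, by 6.51 ± 1.43 (0.0027), a call lost without the libraries numbered as N-343 (0.058). The 3 microglia libraries held 5 reads in all, 4 of them in Mi-340.

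The 3 mural libraries spread from 3 to 510 reads of *Itgb8*, and the mural mean rested on Mu-340. That library had 46978 normalized counts of neural markers, Mu-343 had 61576 and Mu-346 had 33486. In the mean of the mural libraries *Itgb8* was at 3.56% of its neural level, and the 7 neural markers ranged from 1.40% (*Neurod2*) to 354% (*Fabp7*), with a median of 6.44%. By library, 6 of the 7 markers were highest in Mu-343, among them *Tubb3* at 928, 1373 and 1027 and *Gad2* at 172, 866 and 44.1 normalized counts in Mu-340, Mu-343 and Mu-346. Like *Itgb8*, *Sox2* was highest in Mu-340 (382, 288 and 188). The part of neural RNA in the mural values was not tested. Endothelial cells and microglia were called lower (-4.49, adjusted p = 0.010, and -4.44, 0.0096). The endothelial call was lost with edgeR on recovered reads and without the libraries numbered as N-340 or N-343 (up to 0.13). The microglial call was lost without the number of N-343 and without Mi-346 alone (up to 0.088).

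*Nrros*, the myeloid anchor of latent TGF-β1, was highest in microglia at 8319, 9494 and 11706 normalized counts. Endothelial libraries held 2601, 3383 and 2983. Neural libraries held 36.1, 52.1 and 105.7, and mural libraries 34.1, 5.71 and 104.3. Microglia and endothelial libraries did not overlap with each other or with the rest. The difference was 5.82 ± 0.64 on the log2 scale in microglia (limma adjusted p = 2.7e-05) and 3.54 ± 0.64 in endothelial cells (0.0013), and it was -3.99 in neural cells (0.00028) and -5.36 in mural cells (8.6e-05). Endothelial cells minus microglia gave -1.71 ± 0.79, which was not called (0.12). The endothelial level was 30.4% of the microglial one. The 7 microglia markers in endothelial libraries were at 0.0309% of their microglial level. Summed border macrophage markers were at 108, 212 and 279 normalized counts there, against 14943 to 18721 in microglia. The part of such cells in the endothelial level of *Nrros* was not tested.

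Among the receptors, the type II receptor *Tgfbr2* was nearly absent from neural libraries, at 20.03, 23.3 and 28 normalized counts. Endothelial libraries held 3654, 4784 and 3869, microglia 3730, 3293 and 3807, and mural libraries 824, 474 and 1002. Endothelial cells and microglia overlapped and were not told apart by limma (0.18 ± 0.28 on the log2 scale, adjusted p = 0.68). Both were higher than the mean of the rest, by 3.34 ± 0.23 (1.5e-06) and 3.11 ± 0.23 (1.1e-06), and neural cells were lower, at -6.49 ± 0.23 (4.2e-09).

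The type I receptor *Tgfbr1* was measured at high levels in every population. Microglia held 22109, 22313 and 20186 normalized counts, neural libraries 5981, 5607 and 5799, mural libraries 2691, 2178 and 1786, and endothelial libraries 1157, 1312 and 1312. No 2 populations overlapped, and all 3 neighboring pairs differed (limma adjusted p between 9.3e-07 and 0.0018). Microglia were higher than the mean of the rest by 3.10 ± 0.12 on the log2 scale (8.5e-09) and neural cells by 0.57 ± 0.12 (0.0013). Mural cells (-1.30, 1.1e-05) and endothelial cells (-2.36, 1.4e-07) were lower. Per kilobase of exon, neural cells held 887 normalized counts of *Tgfbr1* and 2.90 of *Tgfbr2*. In endothelial cells the order was the other way, with 193 and 501.

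The endothelial type I receptor *Acvrl1* reached 3250, 4672 and 3755 normalized counts in endothelial cells. It was at 1154, 663 and 1532 in mural cells, at 128, 684 and 772 in microglia, and at 2.67, 2.77 and 2.38 in neural cells. The endothelial libraries lay above and the neural libraries below all others, and mural cells and microglia overlapped. Endothelial and mural cells differed narrowly (limma adjusted p = 0.041), a call lost under 11 of 22 alternatives (0.056 to 0.298), among them leaving out any 1 neural or endothelial library. Against the mean of the other populations, limma gave 5.05 ± 0.50 on the log2 scale for endothelial cells (adjusted p = 2.1e-05), 2.56 ± 0.50 for mural cells (0.0019) and -8.36 ± 0.50 for neural cells (1.5e-07).

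Of the co-receptors, *Eng*, a protein of proliferating endothelium, was at 18059, 27511 and 19002 normalized counts in endothelial cells. Mural libraries held 2930, 2720 and 4777, microglia 1218, 1012 and 802, and neural libraries 5.34, 7.75 and 5.28. The 4 populations did not overlap, and each neighboring pair differed (limma adjusted p between 1.1e-08 and 0.00053). Endothelial cells were higher by 6.20 ± 0.23 on the log2 scale (4.1e-08) and mural cells by 2.67 ± 0.23 (9.3e-06), and neural cells were lower at -9.20 ± 0.23 (4.6e-10). *Emcn* was as high in mural as in endothelial cells (102%), and the other 6 endothelial markers were at 0.157% to 4.75% of their endothelial level in mural libraries, while *Eng* was at 16.1% and *Acvrl1* at 28.7%. *Eng* overlaps *Fpgs* on the opposite strand and *Acvrl1* an antisense gene.

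*Tgfbr3*, which presents ligand to the other receptors, was highest in mural cells at 710, 599 and 964 normalized counts. Neural libraries held 54.8, 54.8 and 48.9 and microglia 9.51, 2.37 and 5.04. Endothelial libraries spread from 3.54 through 27.0 to 232, so that Ec-346 lay above the neural range and Ec-340 within the microglial one. Mural cells were higher by 5.11 ± 0.93 on the log2 scale (limma adjusted p = 0.0013) and did not overlap with the rest. Microglia were lower at -4.17 (0.0037), a call lost without the libraries numbered as N-343 (0.081). Beside it in mural libraries, the fibroblast markers *Col3a1* (5837), *Col1a2* (3469) and *Col1a1* (495) had means far above those of the other populations, *Foxc1* was at 1683 and at 1331 in endothelial cells, and *Dcn*, *Lum* and *Pdgfra* were at 103, 47.8 and 0.313. Their part in the level of *Tgfbr3* was not tested.

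**Figure D3:**
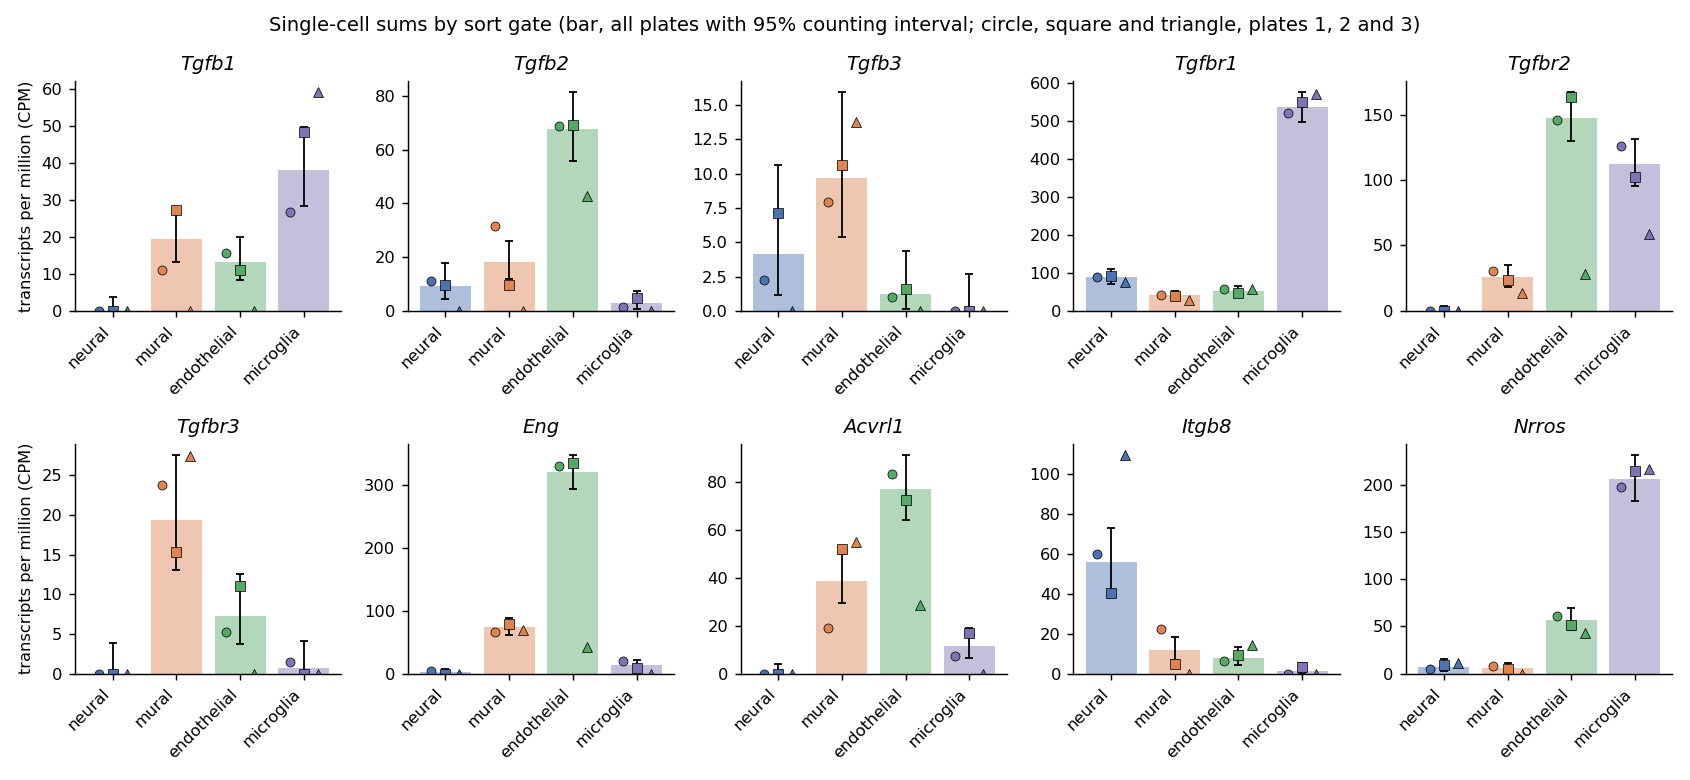
CPM of the 10 genes in transcripts summed by sort gate. Bars are all 3 plates with an exact 95% Poisson interval, and the circle, square and triangle are plates 1, 2 and 3. Among these 4 gates, *Itgb8* is highest in the neural gate at 55.9 CPM and *Nrros* in the microglia gate at 206.5 CPM, and on plate 3 the endothelial level of *Eng* is 42.7 CPM.

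The single cells put the same question to the sort gates. Of the 994 wells in the 4 gates, 686 had over 1500 transcripts and were kept. They were 123 neural, 210 mural, 225 endothelial and 128 microglia cells, with median depths of 7717, 6885, 6408 and 10761 transcripts. The well table names the microglia gate by CD41 positive and CD45 medium. Every library had the same 96 well barcodes as some of the others (25 of 55 pairs of libraries), and between 1.06% and 8.78% of the transcripts of a library stood on barcodes that it did not use. Sums per plate and gate were compared by edgeR's quasi-likelihood test with Benjamini-Hochberg adjustment over 9281 genes, and 8 of the 10 genes passed its filter on low counts. *Tgfb3* and *Tgfbr3* did not pass.

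Of these 8, 1 was higher in the neural gate, 2 in the mural, 5 in the endothelial and 4 in the microglia gate, where 22.5%, 13.5%, 16.4% and 22.2% of all genes tested were higher. In the neural gate 5 were lower, in the mural gate 2, in the endothelial gate 1 and in the microglia gate 2, against 17.3%, 8.3%, 6.96% and 21.2% of all genes. Over 10-fold higher were 0 in the neural gate (5.16% of all genes), 0 in the mural gate (2.96%), 3 in the endothelial gate (3.02%) and 4 in the microglia gate (4.61%). At least 1 gate was over 10-fold higher for 6 of them, compared with 15.1% of all genes. Without plate 2 the number higher in the mural gate was 0, as the calls of *Eng* and *Acvrl1* were lost (adjusted p = 0.172 and 0.175), and without any other plate both were kept. Without plate 3, whose endothelial gate held mural markers, all 22 calls of these genes were kept.

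*Itgb8* transcripts were found in 31 of 123 neural cells (25.2%, exact 95% interval 17.8 to 33.8). The mural gate had 13 of 210 (6.19%, 3.34 to 10.4), the endothelial gate 9 of 225 (4.00%, 1.85 to 7.46) and the microglia gate 2 of 128 (1.56%, 0.190 to 5.53). With every cell thinned at random to 1500 transcripts, the shares were 7.32% in the neural, 2.86% in the mural, 1.78% in the endothelial gate and 0% in microglia. The neural level was 59.8, 40.2 and 110 CPM on plates 1, 2 and 3, above the 3 gates it was compared with on each plate. On plate 2, 1 cell held 8 of the 17 transcripts of the neural gate. A gate outside the comparison, PDGFRβ medium or low, held 153 CPM in 14 cells of plate 1 and 50.3 CPM in 9 cells of plate 2. EdgeR gave a log2 difference of 3.31 ± 0.46 (adjusted p = 2.3e-08).

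*Tgfbr1* was found in 93.0% of microglia (87.1 to 96.7), at 537 CPM, and in 43.1% of neural cells, at 89.1 CPM. The microglial level was 522, 550 and 571 CPM on the 3 plates, and the edgeR log2 difference was 3.45 ± 0.22 (adjusted p = 6.7e-21). Neural cells were not told from the mean of the rest (-0.36 ± 0.27, adjusted p = 0.31). The mural gate held 40.6 CPM of *Tgfbr1* (31.2 to 52.0) and the endothelial gate 53.4 CPM (42.9 to 65.7), the reverse of their bulk order. These intervals overlapped. *Nrros* was found in 72.7% of microglia (64.1 to 80.2) at 206.5 CPM and in 26.7% of endothelial cells (21.0 to 33.0) at 57.0 CPM, and in 5.69% of neural and 4.29% of mural cells. After thinning, *Tgfbr1* was found in 53.9% of microglia and 12.2% of neural cells, and *Nrros* in 21.1% of microglia, 6.22% of endothelial, 0.952% of mural and 0% of neural cells. The endothelial level of *Nrros* was 61.5, 51.8 and 42.7 CPM on the 3 plates. Microglia markers in that gate were at 249, 48.7 and 14.2 CPM, against 7517, 7881 and 8472 CPM in the microglia gate. Their part in the *Nrros* level was not tested. The *Nrros* difference in the endothelial gate was 1.45 ± 0.32 on the log2 scale (edgeR adjusted p = 0.00030), a call lost without plate 1 or plate 2 (up to 0.13).

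*Tgfbr2* was found in 0 of 123 neural cells. A limit of 3 counts leaves room for transcripts in up to 2.44% of cells and for 3.11 CPM. It limits cells with a transcript, not cells that express the gene. The endothelial gate held 148 CPM, at least 47.5-fold higher than this limit, and microglia 112 CPM. *Acvrl1* was also found in 0 neural cells and was at least 24.7-fold higher in the endothelial gate, at 76.8 CPM. *Tgfb1* was found in 0 neural cells and was at least 12.2-fold higher in microglia (37.9 CPM) than the neural limit, with 19.3 CPM in the mural gate and 13.2 CPM in the endothelial gate. In bulk the endothelial level was above the mural one instead. The endothelial gate was not called higher for *Tgfb1* (edgeR log2 difference 1.17 ± 0.69, adjusted p = 0.24). *Tgfb1* was found in 32.0% of microglia (24.1 to 40.9), 11.9% of mural and 9.33% of endothelial cells, but in 3.13%, 3.81% and 1.78% after thinning, where microglia no longer led, so no order is read from these shares. *Eng* had 2 transcripts in neural cells and 320 CPM in the endothelial gate, where it was found in 71.1% of cells (64.7 to 76.9), or 28.9% after thinning. Counting error alone is covered by such intervals and limits.

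*Tgfb2* was at 67.8 CPM in the endothelial gate and was found in 26.2% of its cells (20.6 to 32.5), or 8.44% after thinning, against 2.92 CPM in microglia (edgeR log2 difference of the endothelial gate 3.06 ± 0.37, adjusted p = 8.8e-10). Both genes that did not pass the filter on low counts were highest in the mural gate. *Tgfbr3* was at 19.3 CPM there (13.05 to 27.6) and was found in 0 neural cells, with the same limit of 3.11 CPM. *Tgfb3* had 15 transcripts in mural cells (9.67 CPM, 5.41 to 15.95), 4 in neural cells (4.14 CPM, 1.13 to 10.6), 2 in endothelial cells and 0 in microglia. The highest gate for *Tgfb3* was mural, while in bulk the neural mean was 1.496-fold the mural one and the 2 were not told apart.

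Transcripts of more than 1 of these genes were also counted per cell. *Tgfbr1* and *Tgfbr2* together were found in 51.6% of microglia (42.6 to 60.5), 13.8% of endothelial cells (9.56 to 19.0), 4.29% of mural cells (1.98 to 7.98) and none of the neural cells. *Tgfbr2* by itself was found in 53.9% of microglia and 0 neural cells, so the neural value was fixed beforehand. *Eng* and *Acvrl1* together were found in 30.2% of endothelial cells (24.3 to 36.7), 8.10% of mural cells and 0 of 128 microglia. *Tgfb1* and *Nrros* together were found in 25.8% of microglia (18.5 to 34.3) and 4.0% of endothelial cells. These shares were not thinned, and microglia were the most deeply sequenced cells. No share was compared with the one that independent detection of both genes would give.

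The neural gate can hold progenitors and neurons. Its 123 cells were put with 10 progenitor genes or 10 neuron genes by the higher mean log2(CPM + 1), with 12 cells within 1 of the limit, so the sides are ranges of a score and not cell types. No gene described here was in either list. The activator was mostly on the progenitor side. *Itgb8* had 44 transcripts in 22 of 42 cells on that side (133 CPM, exact 95% Poisson interval 96.8 to 179) and 10 transcripts in 9 of 81 cells on the neuron side (15.8 CPM, 7.55 to 29.0). The progenitor side held 114, 152 and 160 CPM on plates 1, 2 and 3 and the neuron side 25.3, 3.16 and 48.3, with median depths of 7913 and 7675 transcripts over all plates. On plate 2, 1 cell held 8 of the 16 transcripts of the progenitor side. The Poisson intervals take transcripts as independent and do not cover such a spread between cells. On plate 3 the intervals of the sides overlapped (69.2 to 316 and 5.85 to 175).

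**Figure D4:**
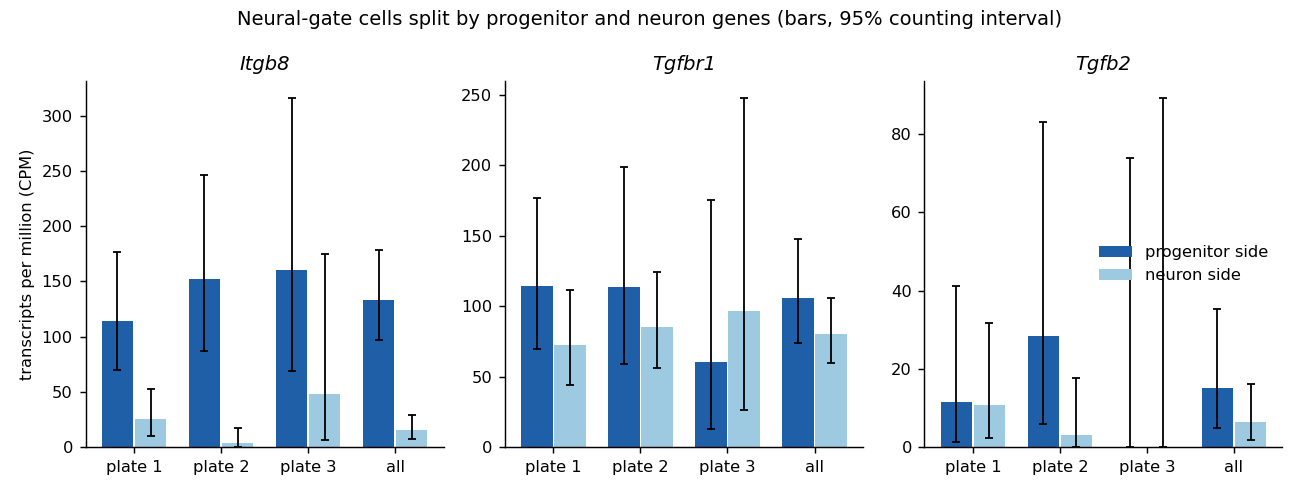
CPM of *Itgb8*, *Tgfbr1* and *Tgfb2* on the progenitor side and the neuron side of the neural gate, by plate and over all plates, with exact 95% Poisson intervals. *Itgb8* is higher on the progenitor side on each of the 3 plates, with intervals that overlap on plate 3. *Tgfbr1* is higher on that side on plates 1 and 2, and its intervals overlap on each plate.

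*Tgfbr1* and *Tgfb2* were the other genes with 5 or more transcripts on the progenitor side. *Tgfbr1* was at 106 CPM on the progenitor side (73.8 to 147) and 80.3 CPM on the neuron side (59.8 to 106), with 114, 114 and 60.1 CPM against 72.3, 85.2 and 96.7 CPM by plate. *Tgfb2* had 5 transcripts on the progenitor side (15.1 CPM, 4.92 to 35.3) and 4 on the neuron side (6.30 CPM, 1.72 to 16.1), which cannot be told apart at this depth.

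In the mural gate, the 9 cells of plate 1 with *Itgb8* held 5521 CPM of neural and 3740 CPM of mural markers, and the 86 without it 934 and 11535 CPM. The 4 such cells of plate 2 held 1240 and 8300 CPM, and the cells without it 589 and 11944 CPM. The 9 endothelial cells with *Itgb8* held 2158 CPM of neural and 2424 CPM of endothelial markers, compared with 494 and 6700 CPM in the 216 cells without. By plate their neural markers were at 1258 CPM in 6 cells, 4946 CPM in 2 cells and 94.5 CPM in 1 cell. Their microglia markers were at 1751 CPM in the 6 cells of plate 1 and at 0 on plates 2 and 3. Among the 123 neural cells, the 31 with *Itgb8* held 5137 CPM of the progenitor genes, against 1284 CPM in the 92 without. These are sums over cells chosen by their *Itgb8* transcripts and carry no test.

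Other genes of the pathway were taken as 4 lists. Of all genes tested, the shares higher and lower were 32.9% and 31.2% in neural, 19.3% and 22.7% in mural cells. They were 23.4% and 22.3% in microglia, and 19.7% and 22.4% in endothelium. Of the 10 genes for latency and matrix storage, 9 were tested in bulk. In neural cells 5 were higher and 2 lower, with a median log2 difference of 1.64 beside 0.09 for all genes tested. In mural cells 4 were higher and 1 lower (median 1.58, all genes -0.10), in endothelial cells 2 higher and 3 lower (-1.19, all genes -0.12), and in microglia 2 higher and 4 lower (-1.13, all genes -0.02). *Ltbp1*, a matrix-binding partner of latent TGF-β, held 835, 809 and 865 normalized counts in neural libraries and at most 129 elsewhere (log2 difference 6.66 ± 1.21, limma adjusted p = 0.00065). *Ltbp4*, of the same family, held 1.19, 0 and 12.6 in microglia and at least 454 elsewhere (-8.03 ± 0.61, 1.5e-06). *Lrrc32*, the relative of NRROS that anchors latent TGF-β on other cells, had 0 reads in microglia and a mean of 1476 in mural cells, at least 406-fold higher than 3 reads in each microglia library. *Itgav*, the α subunit that pairs with β8, was lower in neural cells (602 to 680 normalized counts) and highest in mural cells (6100 to 7680).

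**Figure D5:**
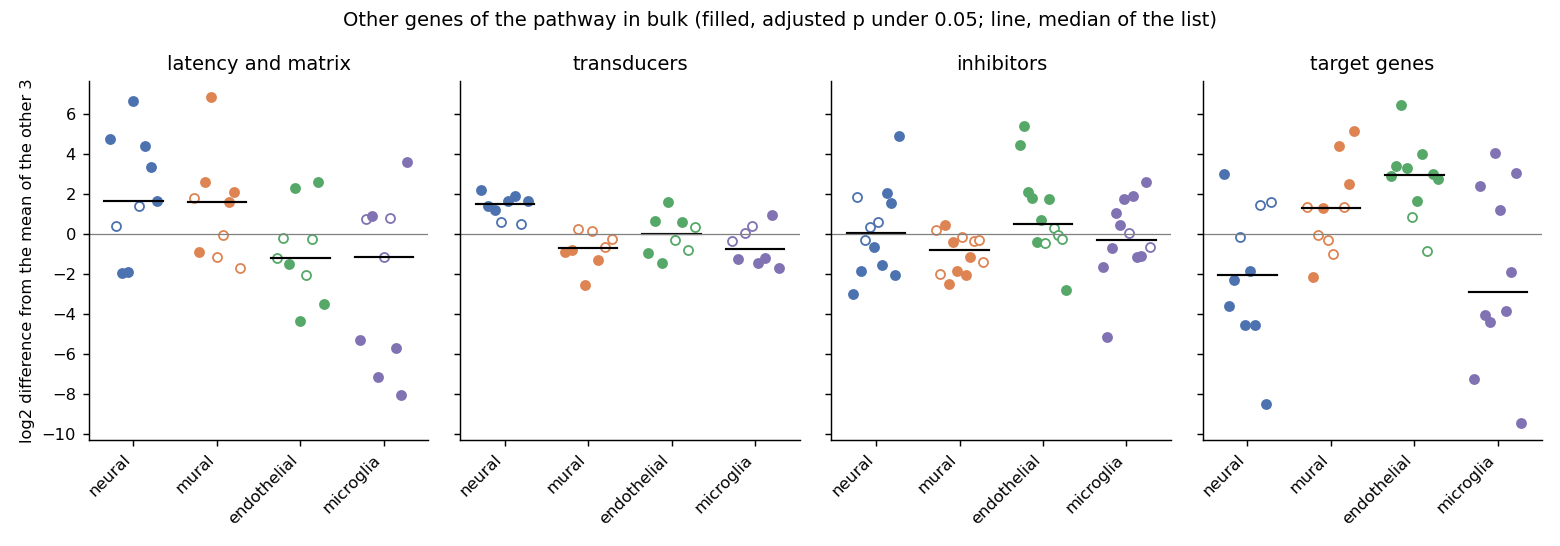
Log2 difference of each population from the mean of the other 3 in bulk (y axis) for the tested genes of the 4 lists, filled where the limma adjusted p was under 0.05. Lines are list medians. The target genes have a median of 2.94 in endothelial cells and -2.89 in microglia.

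Of the 9 transducers, the SMAD proteins and kinases that carry the signal, 8 were tested. Neural cells had 6 higher and 0 lower (32.9% and 31.2% of all genes, median 1.51, with 0.09 for all genes), mural cells 0 and 4 (19.3% and 22.7%, -0.72, all genes -0.10), endothelial cells 3 and 2 (-0.001, all genes -0.12) and microglia 1 and 4 (-0.77, all genes -0.02). *Smad5*, of the branch below ACVRL1, held 7125 to 7370 normalized counts in neural cells and at most 3757 elsewhere (1.90 ± 0.10, limma adjusted p = 5.9e-08). The kinase gene *Map3k7* was also highest in neural cells (2.17 ± 0.23, 1.3e-05). *Smad3*, of the branch below TGFBR1, was lowest in mural cells at 201, 467 and 93.0 normalized counts (-2.56 ± 0.36, 0.00025).

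All 12 inhibitors were tested. The numbers higher and lower were 3 and 5 in neural cells (32.9% and 31.2% of all genes, median 0.02, all genes 0.09), 1 and 5 in mural cells (19.3% and 22.7%, -0.79, all genes -0.10), 6 and 2 in endothelial cells (0.51, all genes -0.12) and 5 and 5 in microglia (-0.31, all genes -0.02). *Bambi*, a decoy receptor, held 4614 to 7340 normalized counts in endothelial cells and at most 711 elsewhere (4.46 ± 0.32, limma adjusted p = 2.1e-06). *Cd109*, a membrane protein that binds TGF-β, was also highest there, at 484, 998 and 1697 (5.37 ± 1.36, 0.0091). The repressor gene *Tgif2* was highest in neural cells at 1868 to 2189, with at most 187 elsewhere (4.88 ± 1.03, 0.0018).

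All 10 target genes, which TGF-β is known to induce in various cells, were tested. In endothelial cells 8 were higher and 0 lower (19.7% and 22.4% of all genes, median 2.94, all genes -0.12). In mural cells 4 were higher and 1 lower (1.31, all genes -0.10), in neural cells 1 and 6 (-2.07, all genes 0.09), and in microglia 4 and 6 (23.4% and 22.3% of all genes, -2.89, all genes -0.02). *Tgfbi*, a matrix protein gene, held 2.67, 6.09 and 5.02 normalized counts in neural libraries and at least 1333 elsewhere (-8.53 ± 0.28, limma adjusted p = 2.2e-09). *Timp3*, a protease inhibitor gene, held 0, 0 and 35.2 in microglia and at least 1007 elsewhere (-9.47 ± 0.89, 8.2e-06). *Ccn2* had 3 reads in microglia, all in Mi-340 (mean of the 3 libraries 1.19 normalized counts), compared with means up to 340 elsewhere. With reads pooled over the libraries, the neural level was 280-fold the microglial one (95.9 to 1359, counting error only).

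Genes with the most similar pattern over the 12 bulk libraries were ranked by Pearson's r of log2(normalized count + 1), which is given as a description, since libraries of a population share its identity and kit. For *Itgb8* these were *Ube2r2* (0.977), *Kif1a* (0.971) and *Trim44* (0.963), and for *Nrros* they were *Stab1* (0.983), *Slc46a3* (0.977) and *Inpp5d* (0.976). *Tgfb1* was nearest to *Selenop*, *Arpc1b* and *Ninj1* (0.996 to 0.998), *Tgfb2* to *Prss12*, *Ptpn14* and *Cyp2j6* (0.969 to 0.974) and *Tgfb3* to *Pcdh19*, *Ccdc149* and *Ccdc92* (0.919 to 0.939). *Tgfbr1* was nearest to *Slc2a5*, *Sycp2* and *Mlec* (0.984 to 0.985), *Tgfbr2* to *Slco2b1*, *F11r* and *Trim25* (0.996), and *Tgfbr3* to *Ror1*, *Sebox* and *Islr* (0.946 to 0.963). *Eng* was nearest to *Ecscr*, *Slc29a1* and *Sbds* (0.990 to 0.994) and *Acvrl1* to *Slc43a3*, *Cracr2b* and *Arhgap31* (0.986 to 0.991). Among the 10 genes themselves, *Tgfb1* and *Tgfbr2* had r = 0.985, *Eng* and *Acvrl1* 0.981, and *Itgb8* and *Tgfbr2* -0.934.

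The genes lie on GRCm38 as follows by GENCODE vM21. *Itgb8* (ENSMUSG00000025321) is on chromosome 12 from 119158022 to 119238802 and *Nrros* (ENSMUSG00000052384) on chromosome 16 from 32142785 to 32165594. *Tgfb1* (ENSMUSG00000002603) is on chromosome 7 from 25687002 to 25705077, *Tgfb2* (ENSMUSG00000039239) on chromosome 1 from 186622792 to 186705989 and *Tgfb3* (ENSMUSG00000021253) on chromosome 12 from 86056745 to 86079041. *Tgfbr1* (ENSMUSG00000007613) is on chromosome 4 from 47353222 to 47414931, *Tgfbr2* (ENSMUSG00000032440) on chromosome 9 from 116084293 to 116175360 and *Tgfbr3* (ENSMUSG00000029287) on chromosome 5 from 107106570 to 107289629. *Eng* (ENSMUSG00000026814) is on chromosome 2 from 32646595 to 32682669 and *Acvrl1* (ENSMUSG00000000530) on chromosome 15 from 101128522 to 101145336.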

How the data were processed

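The members and gene lists were chosen with earlier results of these data known. Bulk values were deposited as normalized counts, a signal on a linear scale, in which each value is a whole number of reads times 1 factor per library (100% of 124078 values up to 100 reads were whole within 0.01). The submitters' processing notes name BWA 0.6.2-r126, STAR, featureCounts, DESeq2 and mm10, without roles or order. Single-cell tables, as deposited by the authors, hold expected transcript counts, corrected for identifiers drawn more than once.

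Bulk genes with a mean of at least 10 normalized counts were fitted with limma 3.58.1 (R 4.3.3, prior trend, pseudocount 1). A fold change on this scale understates the change of low genes. Single-cell sums of cells over 1500 transcripts were rounded and fitted with edgeR 4.0.16 (TMM, filterByExpr). All tests were two-sided, and calls needed an adjusted p under 0.05. Alternatives were pseudocounts of 0.5 and 5, no minimum, quantile normalization, edgeR and DESeq2 1.42.0 on recovered reads, blocks, deeper cells, thinning and replicates left out. On simulated data with 19776 bulk genes, limma called 100 of 100 genes changed 4-fold and 9 unchanged ones, and edgeR on 8884 genes of single-cell sums called 100 of 100 and 3. The simulation used the same dispersion for every gene, changed only genes above a minimum level and gave the other groups equal means. Real spread could be larger, as for *Itgb8* in mural libraries (SD 123, mean 80.9), so these counts do not measure power for such genes.

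Libraries of the same number may come from 1 brain, which the labels do not state. Their residual correlations ran from -0.0540 to 0.0801. Nothing in the labels says how plates map to brains, so plate p-values may measure technical spread. Named genes of a list are the 3 with the largest absolute log2 difference among those called and not overlapping. *Itgav* was named after its values were seen. Remaining steps used Python 3.11.15 with pandas 2.3.3, numpy 2.4.6, scipy 1.17.1 and matplotlib 3.10.9.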

Additional observations from a re-analysis of the deposited data

Results flagged for a closer look

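A sort gate that no comparison used, PDGFRβ medium or low, kept 23 cells on plates 1 and 2. *Itgb8* had 19 transcripts there, in 7 cells (116 CPM, and 55.9 CPM in the neural gate), above the limit of 3 transcripts that a count of 0 allows. Of these, 16 came from 6 cells of plate 1 and 3 from 1 cell of plate 2. The 7 cells with *Itgb8* held 14657 CPM of neural markers, 484 CPM of mural markers and 21105 CPM of progenitor genes, and the 16 cells without it held 3956, 4540 and 6075 CPM. Median depths were 11417 and 4353 transcripts. The single cell of plate 2 with *Itgb8* held 2512 CPM of neural markers, and the 6 of plate 1 held 17773 CPM. The same gate held 5 transcripts of *Tgfb2* and 4 of *Eng*. These values were not tested.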

How the results depend on the processing

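The counts of called genes were recomputed under each alternative, including single bulk libraries left out, which was chosen after seeing the data. Of 167 such counts for 11 results, 162 stayed within 1.5 times the reported count. The number higher in bulk mural cells was 5 in place of 3 with quantile normalization, with edgeR and with DESeq2 on recovered reads, where *Tgfb1* and *Tgfb2* were added, and the number higher in the mural gate was 4 in place of 2 with no filter on low counts, where *Tgfb3* and *Tgfbr3* were added. Leaving out replicate numbers or single libraries gave 2 to 3 genes higher in neural, 3 to 4 in mural, 6 in endothelial and 4 to 5 in microglia libraries, 7 to 8 over 10-fold and 14 to 20 differing neighbors. Besides the pairs named above, the neighbor call lost was mural against neural cells for *Tgfbr3* (adjusted p = 0.111). Leaving out plates gave 1 gene higher in the neural, 0 to 3 in the mural, 4 to 5 in the endothelial and 3 to 4 in the microglia gate, and 6 to 7 over 10-fold. Without plate 2 the mural calls of *Eng* and *Acvrl1* were lost; the cause was not tested.

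Of 29 single bulk calls, 24 were kept under every alternative that gave a p, as were 16 of 22 single-cell calls, and 0 changed direction. DESeq2 gave no adjusted p for *Itgb8* in bulk, and *Tgfb1* did not pass the single-cell filter without plate 2. With the replicate block for number 29 of 29 calls were kept, and with the replicate block for plate 22 of 22. The median neural difference of all genes tested was 0.09 over 19765 genes, and quantile normalization moved it to -0.16 over the same genes. With DESeq2 on recovered reads it was -0.32 over 25175 genes, a different set, and with no minimum it was -0.09 over 35052 genes. Over all genes, 3821 were higher and 4485 lower in mural cells, with edgeR on recovered reads 4236 and 2826. In endothelial cells 3892 were higher and 4430 lower, with edgeR 4065 and 2483 and with DESeq2 4910 and 3522. These counts are out of 19765 genes in the main fit, 20752 with edgeR and 22518 with DESeq2. The highest share of each of the 10 genes fell outside its interval after thinning to 1500 transcripts. From median depths of 6408 to 10761 transcripts, lower shares follow from the thinning itself and do not measure stability. The gate with the highest share changed from microglia to mural for *Tgfb1* and to endothelial for *Tgfbr2*. Plate 3 kept 43 of the 686 cells. *Tgfb3* and *Tgfbr3* were left out of the main single-cell fit by its filter on low counts and were tested only without that filter.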
